A study of Homo sapiens with 24 samples.

Results

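The loci described here hold 10 genes of xenobiotic and oxidative stress defence that are widely described as targets of the transcription factor NRF2: AKR1C1, AKR1C2, AKR1C3, AKR1B10, ALDH3A1, NQO1, HMOX1, GCLM, TXNRD1 and SLC7A11. They were chosen by gene name and not by a rule on their signal, though earlier results of these data were known. Each gene was given a fixed window on hg19, with the 3 AKR1C genes sharing 1 window of 180 kb. The 8 windows span 70 bins of 10 kb, and 23 of those bins had enough peak coverage to be tested, out of 39412 tested bins in the genome. The windows held 61 of the 89609 regions in which at least 1 library had a peak: 18 at TXNRD1, 14 at SLC7A11, 9 at HMOX1, 6 at ALDH3A1, 5 at NQO1, 4 at AKR1C, 3 at AKR1B10 and 2 at GCLM. The measured quantity was acetylation of histone H3 at lysine 27 (H3K27ac), which is found at active promoters and enhancers, read by chromatin immunoprecipitation and sequencing (ChIP-seq). It is not a measure of transcript or protein.

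Chromatin came from 2 human endothelial lines of parental genotype. TeloHAEC are aortic endothelial cells immortalized with telomerase and kept in a medium that contains VEGF, and Eahy926 is an endothelial hybrid line kept in DMEM without it. Each line was grown in its normal medium, with 10 ng/ml IL1b or 10 ng/ml TNFa for 24 h, or with the VEGF supply changed, which meant leaving VEGF out for TeloHAEC and adding it for Eahy926. The VEGF groups of the lines are therefore opposite manipulations, and the lines also differ in medium. Control libraries were made on 2 library days, named day 0 and day 1, and all treated libraries on day 1. Each combination of line, treatment and day had 2 libraries that the labels call biological replicates, so that 20 ChIP libraries and 4 input libraries were available. P-values measure the spread between such replicates. Each line is a single cell line, and in bulk chromatin fewer cells carrying the mark and less mark per cell cannot be told apart.

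Depth differed between the days. The 4 day 0 ChIP libraries kept 18.4 to 21.1 M (mega) tags and their peaks covered 34.0 to 40.3 Mb, whereas the 16 day 1 libraries kept 3.84 to 7.12 M tags and their peaks covered 13.2 to 30.1 Mb. The shallowest was replicate 1 of the TeloHAEC day 1 control, with 3.84 M tags. To compare libraries, the number of base pairs covered by peaks in each bin was scaled to the same total covered length per library, and all bin values below are such scaled covered base pairs unless said otherwise. None of the 4 input libraries had a peak in any of the 8 windows. Windows of 7 of 7 endothelial marker genes (CDH5, ERG, TEK, KDR, VWF, TIE1 and SOX18) had tested bins, and their summed coverage ranged from 696 base pairs at SOX18 to 8348 at ERG in TeloHAEC controls and from 809 at KDR to 6697 at ERG in Eahy926 controls. Among 6 epithelial marker genes, EPCAM, CDH1 and FOXA2 were at 0 in all controls and treated libraries of both lines, while KRT18, KRT8 and SFTPB had tested bins. In TeloHAEC and Eahy926 controls KRT18 had means of 1161 and 1125 base pairs, SFTPB 269 and 333, and KRT8, whose window did not match the RefSeq gene length, 558 and 1252. In treated libraries SFTPB had a mean of 371 in TeloHAEC and 0 in Eahy926. The part of such genes in the line differences below was not tested.

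NRF2, the product of NFE2L2, is held in the cytoplasm by KEAP1, which directs it to degradation. When electrophiles or oxidants modify KEAP1, NRF2 accumulates in the nucleus, pairs with a small MAF protein and binds antioxidant response elements (AREs), while BACH1 competes for the same elements at HMOX1 and other targets. Its targets supply cysteine and glutathione, recycle thioredoxin, and reduce or oxidize reactive carbonyls and quinones, and in endothelium the pathway is studied in relation to shear stress and inflammation.

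Promoter sequences show which of the genes carry the element that NRF2 binds close to their start. RefSeq promoters of the GRCh38.p14 build, taken as the 250 bases before each transcript start, were found for 6 of the 10 genes, as 8 promoters. They were searched on both strands for a core ARE written TGACNNNGC, which occurs in 3830 of 35116 RefSeq promoters of the same length (10.9%). GCLM and both TXNRD1 promoters held a match each, shown in capitals below in the 5′ to 3′ direction of the gene. The GCLM promoter lies on the minus strand at chr1:93909431-93909680, with its match 25 bases before the start. The first TXNRD1 promoter lies on the plus strand at chr12:104215529-104215778 with its match 90 bases before the start, and the second at chr12:104286782-104287031 with its match 93 bases before the start.
GCLM: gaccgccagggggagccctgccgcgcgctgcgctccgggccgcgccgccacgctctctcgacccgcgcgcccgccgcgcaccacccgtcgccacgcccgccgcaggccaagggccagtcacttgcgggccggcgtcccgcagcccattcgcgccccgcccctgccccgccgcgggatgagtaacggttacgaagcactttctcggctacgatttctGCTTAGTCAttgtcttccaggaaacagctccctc
TXNRD1 start 1: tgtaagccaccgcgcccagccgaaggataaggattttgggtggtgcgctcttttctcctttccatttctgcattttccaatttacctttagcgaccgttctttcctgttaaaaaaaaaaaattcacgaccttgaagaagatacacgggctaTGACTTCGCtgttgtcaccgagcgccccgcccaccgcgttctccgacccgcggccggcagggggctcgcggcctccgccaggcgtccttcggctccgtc
TXNRD1 start 2: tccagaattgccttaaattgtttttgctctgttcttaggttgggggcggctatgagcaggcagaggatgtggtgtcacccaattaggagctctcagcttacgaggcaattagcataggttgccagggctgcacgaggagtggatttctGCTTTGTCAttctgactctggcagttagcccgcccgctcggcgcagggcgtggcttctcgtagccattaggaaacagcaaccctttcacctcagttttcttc

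No match to this motif was found in the 250 bases for AKR1C1, AKR1C2, AKR1C3 (2 starts) or NQO1, which says only that these letters are not in those windows. An AP-1 motif written TGANTCA, searched on both strands (6.57% of all promoters), had no match in any of the 8 promoters. CpG dinucleotides numbered 36 in the GCLM promoter, 24 and 9 in the TXNRD1 promoters and 9 in that of NQO1, while AKR1C1 and AKR1C2 had 2 each. The AKR1C1 and AKR1C2 promoters are printed because they are nearly the same sequence, which bears on how sequencing tags can be placed there. AKR1C1 lies on the plus strand at chr10:4963165-4963414 and AKR1C2 on the minus strand at chr10:5003858-5004107. They hold no capitals because they hold no motif match.
AKR1C1: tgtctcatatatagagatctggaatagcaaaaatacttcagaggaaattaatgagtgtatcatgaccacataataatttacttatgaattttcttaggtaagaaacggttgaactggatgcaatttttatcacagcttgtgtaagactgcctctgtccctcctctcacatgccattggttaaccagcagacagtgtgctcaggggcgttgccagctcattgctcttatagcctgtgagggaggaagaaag
AKR1C2: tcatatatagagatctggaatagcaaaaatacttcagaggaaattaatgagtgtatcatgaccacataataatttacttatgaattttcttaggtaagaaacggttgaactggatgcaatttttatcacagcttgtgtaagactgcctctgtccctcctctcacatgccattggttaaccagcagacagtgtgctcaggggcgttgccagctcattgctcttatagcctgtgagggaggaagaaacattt

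Aligned to each other, these 2 promoters were identical at 245 of 246 bases (99.6%), and 216 of the 221 stretches of 30 bases in the AKR1C1 promoter also occurred in that of AKR1C2. Tag lengths in the file headers ranged from 30 to 40 bases, and the headers name unique alignments as the input. The AKR1C3 promoters were 76.8% to 79.5% identical to those of AKR1C1 and AKR1C2 and shared none of the 30-base stretches (0). Values at the AKR1C window are therefore uncertain for sequence that AKR1C1 and AKR1C2 share, and how much signal this affects was not tested.

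At 5 of the 8 windows at least 1 region had a peak in every ChIP library. Such regions, present in all 20 libraries, numbered 7 of the 61, against 10.8% of regions in the genome. These 7 were 1 region each at GCLM (chr1:94343847-94345401), NQO1 (chr16:69760568-69762053), ALDH3A1 (chr17:19655509-19657506) and HMOX1 (chr22:35772452-35773696) and 3 regions at TXNRD1 (chr12:104612208-104614761, chr12:104673717-104674639 and chr12:104679335-104682527), in hg19 coordinates. The authors' fold enrichment over local background, a value of each library's own peak, had a median of 7.80 at the ALDH3A1 region, 7.40 at NQO1, 6.58 at GCLM and 4.53 at HMOX1. At the TXNRD1 regions the medians were 5.55, 5.65 and 4.24. No hg19 annotation was used here, so these regions are placed by window and not as promoter, exon or intron.

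**Figure D1:**
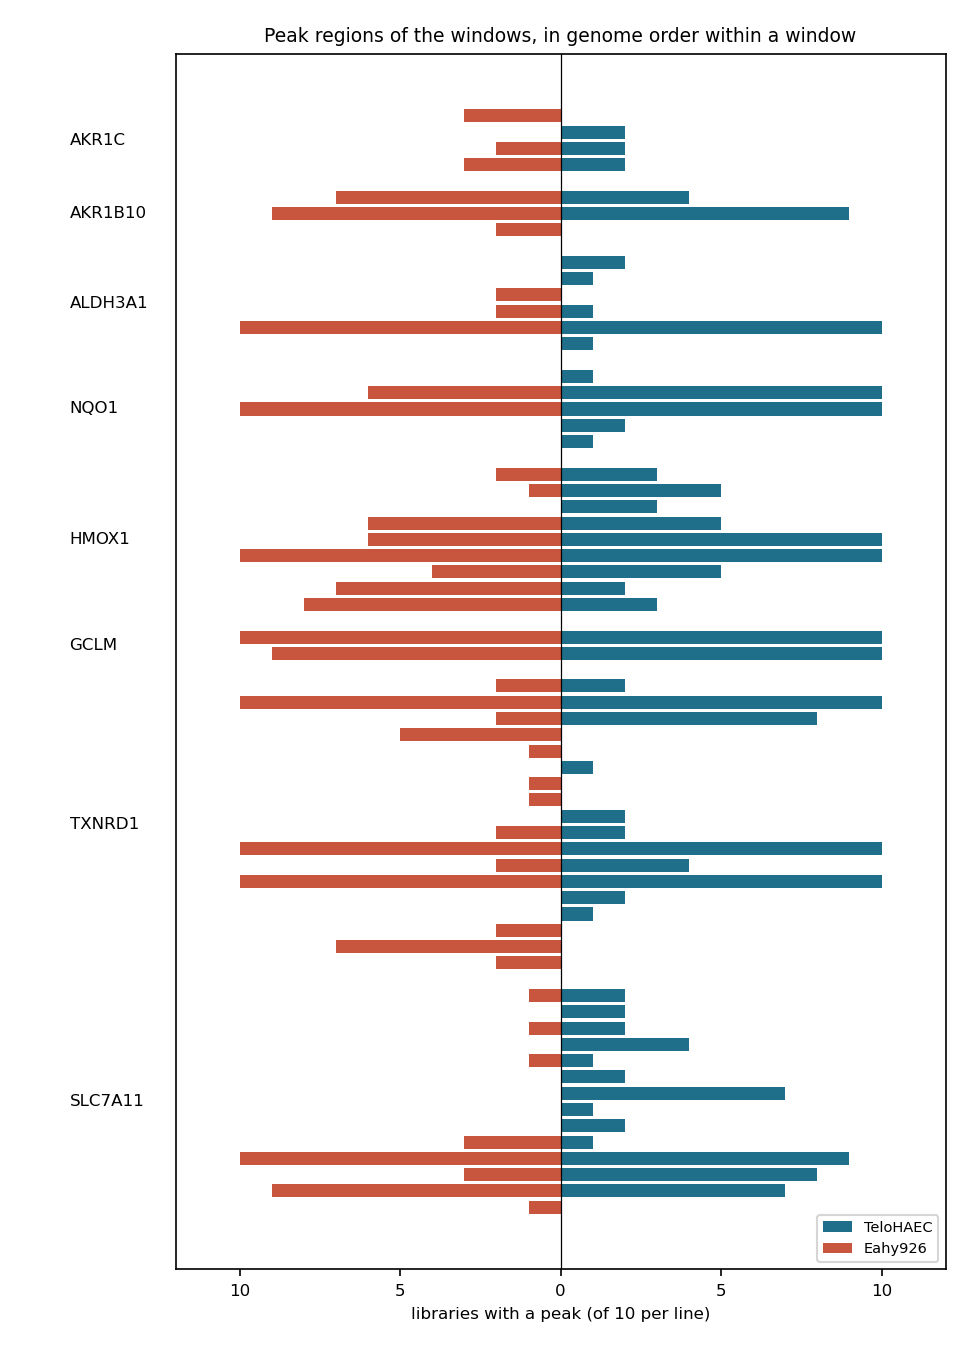
Number of ChIP libraries with a peak in each region of the 8 windows, counted out of 10 per line, with TeloHAEC libraries in blue to the right and Eahy926 libraries in red to the left. GCLM, NQO1, ALDH3A1, HMOX1 and TXNRD1 have regions that reach 10 in both lines, and the AKR1C regions reach no more than 3 in either.

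The remaining regions were less often covered. SLC7A11 had 1 region (chr4:139155865-139157931) with a peak in 19 libraries, absent from replicate 1 of TeloHAEC without VEGF, and GCLM had a second (chr1:94373819-94375076) in 19 libraries, absent from 1 of the Eahy926 IL1b libraries. AKR1B10 had its main region (chr7:134200074-134201280) in 18 libraries and lacked it in replicate 1 of the day 1 controls of both lines. Peaks in day 0 libraries alone made up 20 of the 61 regions, against 15.8% of regions in the genome; these are the deeper libraries, and depth and day cannot be told apart.

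No region separated the lines under a strict rule. With at least 9 of 10 libraries in 1 line and at most 1 of 10 in the other, 0 of the 61 regions qualified in either direction, against 3.84% of regions in the genome for TeloHAEC and 2.39% for Eahy926. Named after the values were seen, 3 regions had a peak in at least 5 libraries of 1 line and in 0 of the other. The TXNRD1 region chr12:104754420-104755180 had a peak in 0 TeloHAEC and 7 Eahy926 libraries, with at least 1 in each Eahy926 group, and chr12:104643025-104643696 in 0 and 5. At SLC7A11, chr4:139120851-139121775 had a peak in 7 TeloHAEC libraries, with at least 1 in each TeloHAEC treatment group, and in 0 Eahy926 libraries. Another 4 regions were covered in both lines but differed by 5 or 6 libraries: TXNRD1 chr12:104619904-104621386 (8 TeloHAEC and 2 Eahy926), SLC7A11 chr4:139161821-139163484 (8 and 3), and HMOX1 chr22:35795378-35795922 (2 and 7) and chr22:35796053-35796771 (3 and 8). The shares of genome regions with these looser patterns were not counted, so the regions named are examples and not a result about these loci. A peak missing from a library of 3.84 to 7.12 M tags means that none passed the threshold at that depth, not that acetylation was absent.

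For each window the bin with the largest mean coverage over the 20 ChIP libraries stands for the locus in what follows. SLC7A11, the transporter that brings in cystine in exchange for glutamate, had 1335 ± 416 base pairs (SD, n = 20) in its leading bin, chr4:139150001-139160000, with 1 library at 0. GCLM, the modifier subunit of the ligase that makes the glutathione precursor, had 957 ± 165 (SD, n = 20) in chr1:94340001-94350000. TXNRD1, the cytosolic thioredoxin reductase, had the highest mean of the 8 at 1865 ± 475 (SD, n = 20) in chr12:104610001-104620000. These 3 genes of thiol supply and recycling were covered in at least 19 of 20 libraries each.

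Among the enzymes that act on carbonyls, quinones and heme, ALDH3A1, an aldehyde dehydrogenase, had 1573 ± 392 (SD, n = 20) in chr17:19650001-19660000, and NQO1, a quinone reductase, had 1398 ± 376 (SD, n = 20) in chr16:69760001-69770000. HMOX1, the inducible heme oxygenase, had 815 ± 234 (SD, n = 20) in chr22:35770001-35780000. AKR1B10, an aldo-keto reductase that reduces retinal and other carbonyls, had 652 ± 293 (SD, n = 20) in chr7:134200001-134210000, with 2 libraries at 0. The AKR1C leading bin, chr10:5130001-5140000, had 137 ± 257 (SD, n = 20), and 15 of 20 libraries were at 0. In this order of levels the ranges over the 20 libraries overlapped between all neighbours. AKR1C, with a median of 0, was the only locus at 0 in most libraries. Covered length per bin also depends on how many peaks a bin holds, so the order is one of coverage and not of peak height.

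The AKR1C window, which holds the hydroxysteroid and carbonyl reductases AKR1C1, AKR1C2 and AKR1C3, had coverage almost entirely in day 0 libraries. Summed over its 180 kb, coverage was 2370 and 2309 base pairs in the TeloHAEC day 0 controls and 1001 and 766 in the Eahy926 day 0 controls. Of the 16 day 1 libraries, 15 were at 0 and replicate 2 of Eahy926 with TNFa had 258. The TeloHAEC day 0 libraries were both above the Eahy926 day 0 libraries, and before scaling the values were 3709 and 3475 against 1483 and 1040.

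The difference within the AKR1C window lay mostly in 1 region. In chr10:5060001-5070000 the TeloHAEC day 0 controls had 861 and 968 base pairs and all 18 other ChIP libraries had 0. In chr10:5110001-5120000 the TeloHAEC day 0 controls had 814 and 658 and the Eahy926 day 0 controls 430.1 and 184. In the leading bin they had 696 and 684 against 571 and 535, so that the lines were closer there. The enrichment of the region at chr10:5061556-5063109 was 5.94 and 7.75 in its 2 libraries, beside medians of 4.24 to 7.80 at the regions seen in all 20 libraries. Whether day 1 libraries lacked the tags to call them was not tested.

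The first question the design poses is how the lines differ at these loci in normal medium. TeloHAEC controls were compared with Eahy926 controls over both days with limma on log2(scaled covered base pairs + 200), and a bin is named as called where the Benjamini-Hochberg adjusted p over all 39412 bins was under 0.05. Of the 23 bins, 9 were called, 7 higher and 2 lower in TeloHAEC, and 10 had an unadjusted p under 0.05. Genome-wide 43.0% of bins were called, 22.8% higher and 20.1% lower, so the count of 9 in 23 is near the background. Moreover, 8 of the 9 had at least 500 unscaled base pairs in 2 or more libraries, the filter for testing, only in the line where they were higher, the leading HMOX1 bin being the exception. Such bins had to differ to be tested at all, and their p-values are given with that limit. The median log2 difference was 0.14 over the 23 bins and -0.03 over all tested bins. Of the 8 leading bins only that of HMOX1 was called. A difference against a group at 0 depends on the constant of 200 and is not a fold change.

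TXNRD1 had the only called bin without overlap between the lines, a bin that was tested only because of its Eahy926 coverage. The share of genome bins without overlap is not given here, so this is a description of the bin alone. In chr12:104750001-104760000, at the far end of its window, all 10 TeloHAEC libraries were at 0, while the Eahy926 controls had 691 and 621 on day 0 and 712 and 492 on day 1. Every Eahy926 control was above every TeloHAEC control. The log2 difference was -2.04 (SE 0.385, limma adjusted p = 9.841e-04), and it was -2.10 within day 0 (adjusted p = 0.0107) and -1.99 within day 1 (adjusted p = 0.0156). The window also held a bin higher in TeloHAEC, chr12:104620001-104630000, with 908 and 794 in the day 0 controls and 0 and 375 in the day 1 controls against 0 in all 4 Eahy926 controls. Its log2 difference was 1.58 (SE 0.57, limma adjusted p = 0.0406), 2.39 within day 0 (adjusted p = 0.0399) and 0.76 within day 1 (adjusted p = 0.532). This call was lost when any of 7 of the 8 controls was left out, with differences from 1.20 to 1.62. The leading TXNRD1 bin showed little difference in controls, at 1856 ± 526 in TeloHAEC and 1814 ± 407 in Eahy926 (SD, n = 4). As a share of each library's covered length, chromosome 12 took 5.26% ± 0.113 for TeloHAEC and 6.27% ± 0.275 for Eahy926 (SD over 4 control libraries each), and the part of this in the TXNRD1 values was not tested.

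**Figure D2:**
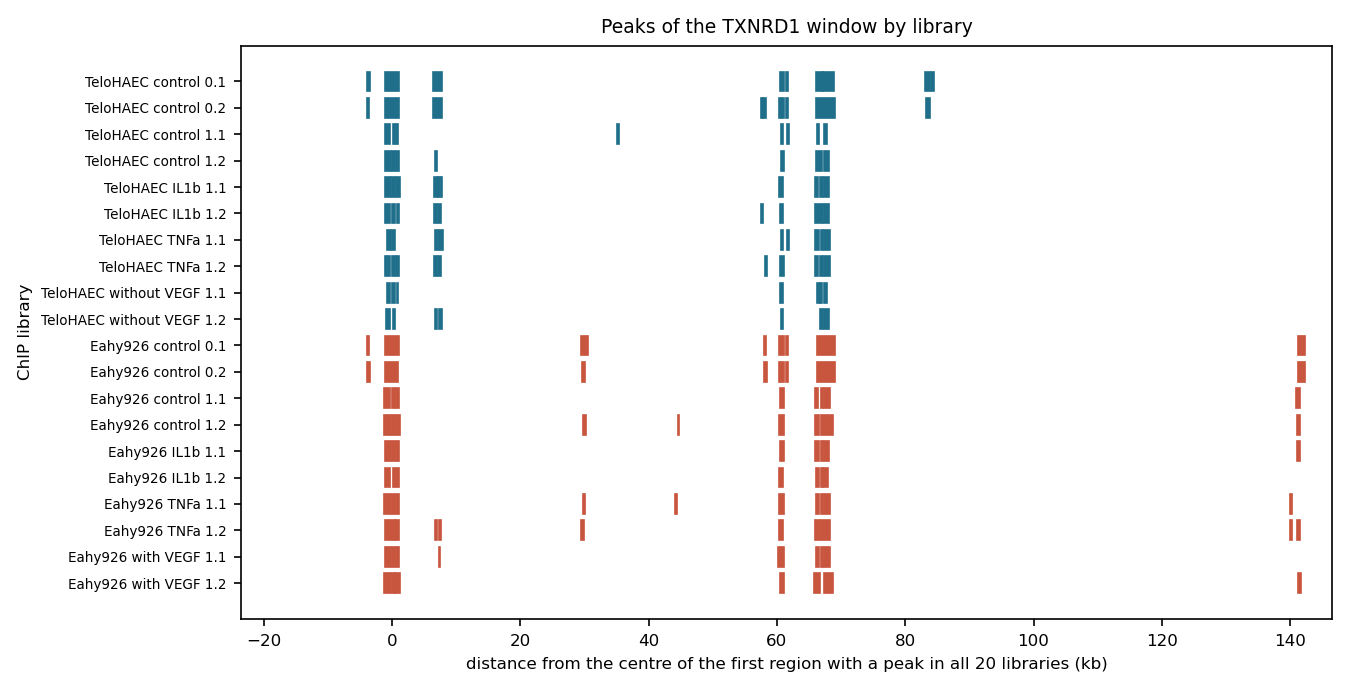
Peaks in the TXNRD1 window, 1 line per ChIP library, against the distance in kb from the centre of the first region with a peak in all 20 libraries. The 3 regions present in all libraries line up, and peaks at the far right are seen in Eahy926 libraries and in no TeloHAEC library.

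HMOX1 bins differed in both directions. The leading bin had 929, 920.2, 1203 and 759 base pairs in the TeloHAEC controls and 1015, 917, 373 and 312 in the Eahy926 controls (day 0 first). The log2 difference of 0.52 (SE 0.193, limma adjusted p = 0.0450) was present on day 1, at 1.10 (adjusted p = 0.00906), and within day 0 it was -0.05 (adjusted p = 0.973). In chr22:35790001-35800000 the TeloHAEC controls had 0, 171, 0 and 0 and the Eahy926 controls 751, 696, 0 and 799, a log2 difference of -1.46 (SE 0.478, limma adjusted p = 0.0267) that was -1.76 within day 0 (adjusted p = 0.0710) and -1.16 within day 1 (adjusted p = 0.237). Leaving out 1 control ended the first call for 7 of the 8 controls (0.39 to 0.56) and the second for 6 of the 8 (-1.48 to -0.88). At chr22:35750001-35760000, covered in the TeloHAEC day 0 controls (863 and 697) and at 0 in the other 6 controls, the log2 difference was 1.14 (SE 0.277, adjusted p = 0.00532) over both days and 0 within day 1. In all 3 bins the lines overlapped.

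The other called bins were covered in day 0 controls alone. They were the AKR1C bins chr10:5060001-5070000 (log2 difference 1.24) and chr10:5110001-5120000 (0.46, limma adjusted p = 0.0193), the ALDH3A1 bin chr17:19630001-19640000 (0.37, adjusted p = 0.00875) and the TXNRD1 bin chr12:104690001-104700000 (0.96). For the first and the last no p is given, because the 2 TeloHAEC day 0 controls that make them higher were the only covered libraries of the 20. All 4 were higher in TeloHAEC on day 0 and at 0 in every control of day 1, and the second was lost without replicate 1 of the TeloHAEC day 0 control (0.40, adjusted p = 0.0560). Since these bins were at 0 in nearly all groups, the spread used by their tests rests on few libraries. With day 1 controls alone 2 of the 23 bins were called, against 10929 of 39412 in the genome. They were the TXNRD1 bin at chr12:104750001-104760000 and the leading HMOX1 bin. With day 0 controls alone 8 of the 23 were called. The genome share for day 0 alone is not given here, so that count is not read as a result about these loci.

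**Figure D3:**
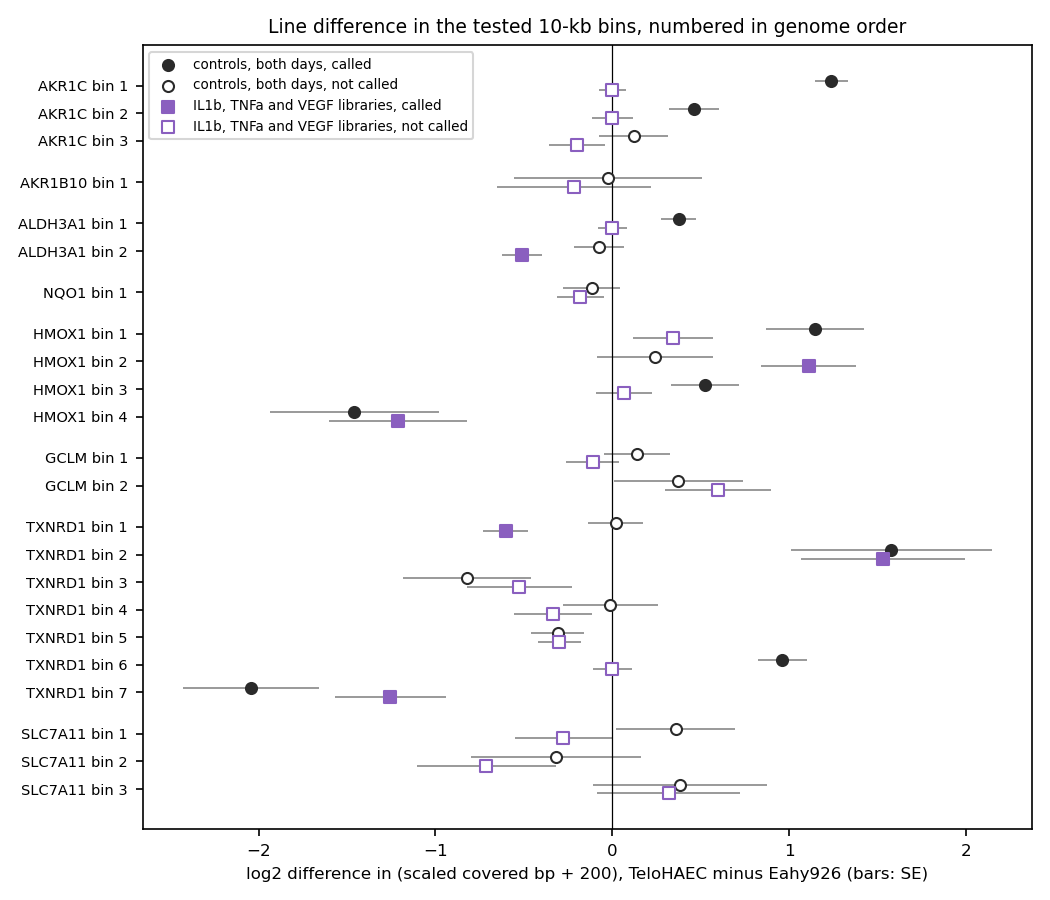
Log2 difference (TeloHAEC minus Eahy926, with its standard error) of each of the 23 tested bins, in controls (circles) and treated libraries (squares), with filled symbols for called bins. Values run from -2.04 at TXNRD1 to 1.58 at another TXNRD1 bin.

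Leading bins of the other loci overlapped between the controls of both lines and were not called. GCLM had 1040 ± 155 in TeloHAEC and 919 ± 46.1 in Eahy926, SLC7A11 had 1182 ± 435 and 1468 ± 270, and NQO1 had 1405 ± 640 and 1486 ± 422 (SD, n = 4 each). ALDH3A1 had 1520 ± 536 and 1583 ± 378 and AKR1B10 had 571 ± 384 and 589 ± 399 (SD, n = 4 each). The log2 differences were 0.14 (SE 0.186) at GCLM, -0.32 (SE 0.480) at SLC7A11, -0.12 (SE 0.162) at NQO1, -0.07 (SE 0.141) at ALDH3A1 and -0.02 (SE 0.533) at AKR1B10. For GCLM the result depended on the peak threshold: with peaks of −log10 q of at least 5 it was called in the opposite direction (-1.02, limma adjusted p = 0.00779). The standard errors at SLC7A11 and AKR1B10 leave room for sizeable differences that this number of libraries cannot show.

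In treated libraries the leading bins of TXNRD1 and ALDH3A1 were lower in TeloHAEC. Over the IL1b, TNFa and VEGF libraries of day 1, 6 of the 23 bins were called, 2 higher and 4 lower in TeloHAEC, and 7 had an unadjusted p under 0.05. Genome-wide 52.3% of bins were called, 27.5% higher and 24.8% lower, a larger share than in the windows. Of the 6 bins, 3 met the filter only through the line where they were higher: both TXNRD1 bins other than the leading one and HMOX1 chr22:35790001-35800000. The median log2 difference was -0.18 over the 23 bins and -0.01 over all tested bins. This comparison has libraries of 1 day, but its VEGF groups are opposite manipulations. Depth also differed, with 4.61 to 5.91 M tags kept in TeloHAEC and 5.57 to 6.96 M in Eahy926. Their peaks covered 14.1 to 30.1 Mb and 14.4 to 25.7 Mb. The part of this in the line differences was not tested.

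The leading TXNRD1 bin had 1676, 1694, 949, 1354, 1938 and 1228 base pairs in the treated TeloHAEC libraries (IL1b, TNFa and without VEGF, 2 each) and 2209.7, 2736, 2211, 2183, 2155 and 2294 in the treated Eahy926 libraries. Every treated Eahy926 library was above every treated TeloHAEC library. The log2 difference was -0.60 (SE 0.126, limma adjusted p = 0.00156). The leading ALDH3A1 bin also separated without overlap, with 1128 to 1399 in TeloHAEC (mean 1271 ± 113, SD, n = 6) and 1667 to 2384 in Eahy926 (mean 1904 ± 266, SD, n = 6). Its log2 difference was -0.51 (SE 0.115, limma adjusted p = 0.00269). How many bins of the genome separate the treated libraries in this way is not given here. In the controls these bins had differences of 0.02 and -0.07, and the test of whether the cytokine response differed between the lines gave -0.72 at TXNRD1 (limma adjusted p = 0.244) and -0.57 at ALDH3A1 (adjusted p = 0.307), neither of which passed.

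The TXNRD1 bins at chr12:104750001-104760000 and chr12:104620001-104630000 were called again, with log2 differences of -1.26 (SE 0.314, limma adjusted p = 0.00507) and 1.53 (SE 0.464, adjusted p = 0.0149). For the first, treated Eahy926 libraries had 529.9, 0, 454, 791, 0 and 428 and every treated TeloHAEC library had 0. For the second, treated TeloHAEC libraries had 886, 964, 1120.5, 900.3, 0 and 955 and treated Eahy926 libraries 0, 0, 0, 639, 342 and 0. At HMOX1, chr22:35760001-35770000 was higher in TeloHAEC (log2 difference 1.11, SE 0.269, adjusted p = 0.00417) and chr22:35790001-35800000 lower (-1.21, SE 0.391, adjusted p = 0.0205). The latter was lost without replicate 2 of TeloHAEC with IL1b (-0.86, adjusted p = 0.0578). The leading bins of GCLM, SLC7A11, NQO1, AKR1B10, AKR1C and HMOX1 were not called. At SLC7A11 the treated means were 1103 ± 554 in TeloHAEC and 1581 ± 153 in Eahy926 (SD, n = 6), a log2 difference of -0.71 (SE 0.392, adjusted p = 0.147) that included a TeloHAEC library at 0.

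The second question is what the cytokines and the change in VEGF did. Each treatment was compared with the day 1 controls of its line, so that the 3 comparisons in a line share their 2 control libraries. Few bins of the windows were called. IL1b in TeloHAEC gave 0 of 23 by limma (3 at an unadjusted p under 0.05, with 4.29% of bins called in the genome), and TNFa in TeloHAEC gave 2 (6 at an unadjusted p under 0.05, 3.55% in the genome). IL1b in Eahy926 gave 1 (3 unadjusted, 0.794% in the genome) and TNFa in Eahy926 gave 1 (4 unadjusted, 1.21% in the genome). Leaving VEGF out of TeloHAEC medium gave 0 by limma (2 unadjusted, 1.67% in the genome) and adding it to Eahy926 medium gave 0 by limma (1 unadjusted, 0.259% in the genome). The median log2 difference was 0 in the windows and over all bins in each of the 6 comparisons. At 1 or 2 bins of 23 these counts are too small to read against those shares.

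HMOX1 supplied 3 of the 4 calls. At chr22:35750001-35760000, at lower coordinates than the leading bin, the TeloHAEC libraries with TNFa had 592 and 555 base pairs, those with IL1b 15.8 and 453, and the day 1 controls 0 and 0. In Eahy926 the libraries with TNFa had 749 and 334 and all 8 others had 0. TNFa libraries were thus above the day 1 controls in both lines, with no overlap. The log2 difference was 1.95 (SE 0.392, limma adjusted p = 0.0157) for TNFa in TeloHAEC, 1.83 (SE 0.392, adjusted p = 0.0453) for TNFa in Eahy926 and 0.91 (adjusted p = 0.255) for IL1b in TeloHAEC. However, the TeloHAEC day 0 controls had 863 and 697 in this bin, above the TNFa libraries. Against controls of both days the difference for TNFa in TeloHAEC was 0.81 (adjusted p = 0.731) and that in Eahy926 was 1.83 (adjusted p = 0.342). The TeloHAEC call was lost without replicate 1 of the day 1 control (adjusted p = 0.0674), without replicate 1 of TNFa (0.0794) and without replicate 2 of TNFa (0.0633). The Eahy926 call was lost without either day 1 control (0.160 and 0.152) or without replicate 1 of TNFa (0.275).

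**Figure D4:**
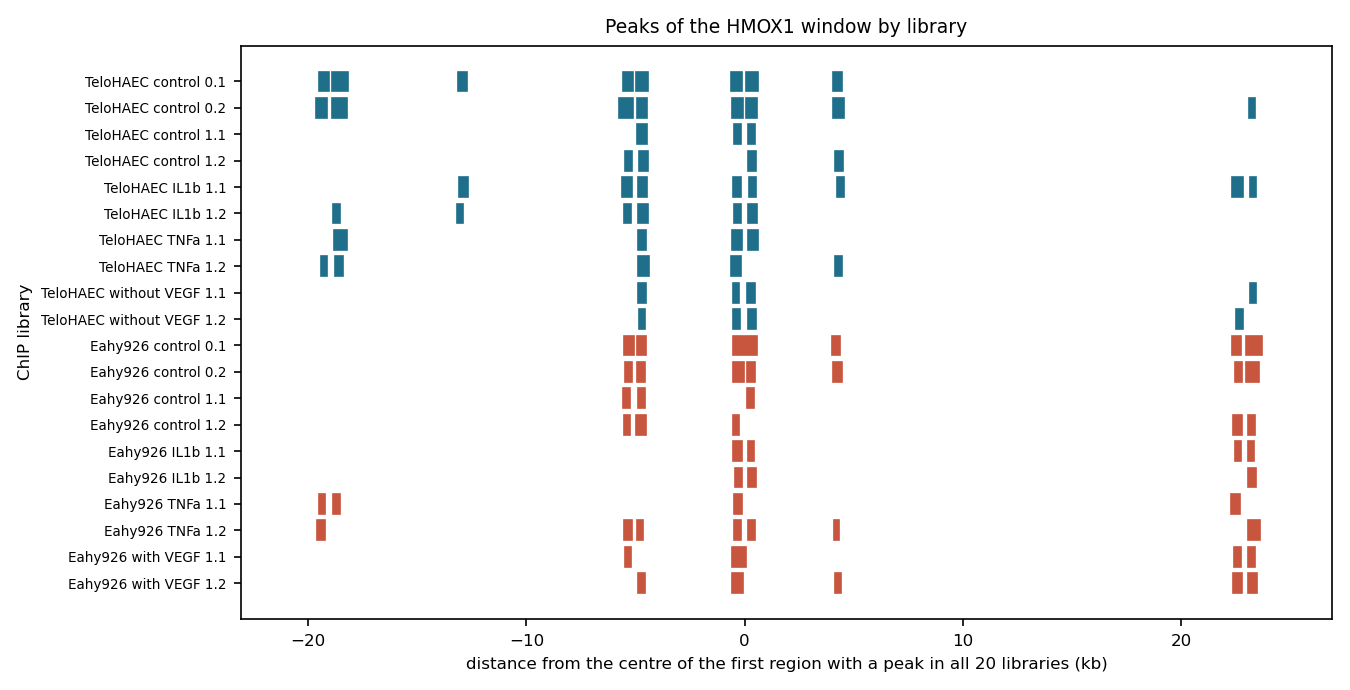
Peaks in the HMOX1 window, 1 line per ChIP library, against the distance in kb from the centre of the region with a peak in all 20 libraries. Peaks at the far left appear in the TeloHAEC day 0 controls and in TNFa libraries of both lines (592, 555, 749 and 334 base pairs). They also appear in 1 TeloHAEC IL1b library and are missing from the day 1 controls.

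In the neighbouring bin, chr22:35760001-35770000, IL1b in Eahy926 went with a loss of coverage. Both IL1b libraries were at 0, against 577 and 545 in the day 0 controls and 734 and 806 in the day 1 controls, and the TNFa libraries had 0 and 622. The log2 difference for IL1b was -2.28 (SE 0.47, limma adjusted p = 0.0467). Leaving out any 1 of the 4 libraries compared raised the adjusted p to between 0.0576 and 0.167. In TeloHAEC the IL1b libraries had 1042 and 957 in this bin, close to the day 1 controls at 829 and 823, and the TNFa libraries had 332 and 431. The leading HMOX1 bin was not called for any treatment: in Eahy926 the IL1b libraries had 819 and 1126 against 373 and 312 in the day 1 controls (log2 difference 1.10, adjusted p = 0.119), but the day 0 controls had 1015 and 917.

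At TXNRD1, the leading bin was lower with TNFa in TeloHAEC. The TNFa libraries had 949 and 1354, the day 1 controls 2549 and 1976, and the day 0 controls 1508 and 1391. The log2 difference was -0.87 (SE 0.218, limma adjusted p = 0.0495). This call depended on the scaling: before scaling the TNFa libraries had 941 and 1544 and the day 1 controls 1343 and 1812, a difference of -0.32 (adjusted p = 0.483). At an equal covered length per library the difference was -0.45 (adjusted p = 0.307), and without replicate 1 of the day 1 control, the shallowest library, it was -0.70 (adjusted p = 0.239). Without replicate 1 of TNFa it was -0.65 (adjusted p = 0.268).

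The genes of glutathione supply and quinone reduction had no called bin under treatment. For GCLM, libraries with TNFa had 933 and 886 in TeloHAEC and 1188 and 917 in Eahy926, against day 1 controls of 1186 and 1091 and of 906 and 938. For SLC7A11, libraries with TNFa had 1289.9 and 1398 in TeloHAEC and 1663 and 1375 in Eahy926, against 622 and 1671 and 1525 and 1827. For NQO1, TeloHAEC libraries with IL1b had 1037 and 1063, and the day 1 controls 2269.6 and 1509.5. The treated and control values overlapped at GCLM in Eahy926 and at SLC7A11 in both lines. At NQO1 they did not, but the day 0 controls had 938 and 902 and the log2 difference of -0.72 did not pass (limma adjusted p = 0.113). Summed over the NQO1 window and before scaling, the values did overlap, at 1612 and 1300 with IL1b against 1294 and 1894 in the day 1 controls.

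The lines were also compared for their response to cytokines, as the mean of the IL1b and TNFa responses in TeloHAEC minus that in Eahy926. Of the 23 bins 0 were called by limma, 4 had an unadjusted p under 0.05 and the lowest adjusted p was 0.147, at the leading HMOX1 bin with a difference of -1.09. Genome-wide 1.93% of bins were called. The median was -0.10 in the windows and 0.06 over all bins. That no bin passed does not show that the lines responded alike at these loci.

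More bins of these loci were called for library day than for any treatment. Day 1 controls minus day 0 controls over both lines gave 10 of 23 called bins, 3 higher and 7 lower on day 1, and 11 at an unadjusted p under 0.05, against 20.5% of bins in the genome (8.06% higher, 12.4% lower). The median log2 difference was -0.53 in the windows and -0.11 over all bins. The lower bins were those at AKR1C (log2 differences of -1.24, -1.76 and -2.03), 1 bin each at ALDH3A1 (-1.84), HMOX1 (-1.14) and SLC7A11 (-1.10) and the TXNRD1 bin chr12:104690001-104700000 (-0.96). All of these except the HMOX1 bin met the filter for testing only through day 0 controls. Such bins had to be lower on day 1 to be tested at all, and the count of called bins carries that limit. The leading bins of ALDH3A1 (0.55), NQO1 (0.75) and TXNRD1 (0.54) were higher on day 1 after scaling, and these 3 turned to -0.27, -0.053 and -0.30 without scaling. At equal covered length the leading TXNRD1 bin was called in the opposite direction (-0.40, limma adjusted p = 0.0462). Leaving out 1 control ended the calls at TXNRD1 for 7 of the 8 (0.45 to 0.56), at SLC7A11 for 6 of the 8 (-1.10 to -0.73) and at ALDH3A1 without replicate 1 of the Eahy926 day 1 control (0.50, adjusted p = 0.0601). Day 1 controls were also the shallower ones, and library day, depth and any difference between cultures cannot be told apart.

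Since the AKR1C window moved most with day, the bins whose values were most like its leading bin over the 20 ChIP libraries were listed. They were chr9:670001-680000 (Pearson r = 0.9945), chr10:4980001-4990000 (r = 0.9934), which lies next to the AKR1C window, and chr5:37730001-37740000 (r = 0.9787). The leading bins of the 7 other windows had r from -0.55 (NQO1) to 0.31 (HMOX1) with it. These are descriptions over 20 libraries that share their depth and day, and most of the AKR1C values are 0.

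The wider pathway was described with 28 further NRF2 target genes and 8 regulators, whose windows on hg19 were set from general knowledge of gene positions and not from an annotation. Tested bins were found for 25 of the 28 targets and for 8 of 8 regulators. Which libraries let these bins meet the filter for testing was not checked. Their p-values may therefore carry the limit given for the bins of the windows, above all where one side is mostly at 0. In controls, the leading bin was higher in TeloHAEC at 3 targets and lower at 2, with a median log2 difference of -0.10. Over all tested bins of the genome 22.8% were higher and 20.1% lower, so 5 of 25 is no more than the background. The higher ones were PIR, an iron-binding nuclear protein (1.53, limma adjusted p = 3.14e-05), EPHX1, microsomal epoxide hydrolase (1.53, adjusted p = 0.00551), and ABCC3, an exporter of conjugates (0.58, adjusted p = 0.00971). The lower ones were GCLC, the catalytic partner of GCLM (-1.59, adjusted p = 0.0152), and ABCC1, a glutathione conjugate exporter (-0.66, adjusted p = 0.00263). Within day 0 the EPHX1 and ABCC3 differences were 0.77 (limma adjusted p = 0.360) and 0.41 (adjusted p = 0.204), and within day 1 they were 2.29 (adjusted p = 0.00560) and 0.74 (adjusted p = 0.0237). GCLC passed within neither day (-1.81, adjusted p = 0.0557, and -1.36, adjusted p = 0.152), while PIR and ABCC1 passed within both. At equal covered length the calls of PIR, ABCC1, ABCC3 and GCLC in controls were lost. Those of ABCC3 and GCLC were also lost at −log10 q of at least 5.

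PIR had 2732, 2684, 1769 and 1447 base pairs in the TeloHAEC controls against 565, 606, 598 and 609 in the Eahy926 controls. All TeloHAEC values were above all Eahy926 values. GCLC, in contrast with GCLM, had 0, 0, 0 and 404 in its leading bin in TeloHAEC controls against 613, 406, 939 and 502 in Eahy926 controls. That call was lost without replicate 1 of the Eahy926 day 0 or day 1 control (adjusted p = 0.0555 and 0.0562) or of the TeloHAEC day 1 control (0.0638). In treated libraries 1 target was higher in TeloHAEC, PIR (1.21), and 5 were lower, among them ABCC1 (-0.76), TXN (-0.50), PRDX1 (-0.44) and BLVRB (-0.90), with a median of -0.25, against 27.5% of bins higher and 24.8% lower in the genome. The TXN call was lost when any of 10 of the 12 libraries was left out (-0.54 to -0.32). The PRDX1 call was lost without scaling (-0.28, limma adjusted p = 0.136) and at −log10 q of at least 5 (-0.49, adjusted p = 0.125). TXN is the substrate of TXNRD1, PRDX1 is a peroxidase that TXN reduces, and BLVRB is biliverdin reductase B. Across the 6 treatment comparisons, 0 of the 52 tested bins of the targets were called by limma, and 2 to 6 per comparison had an unadjusted p under 0.05. In the genome 0.259% to 4.29% of bins were called in these comparisons.

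Among the regulators, no leading bin was called in controls and 1 was lower in treated TeloHAEC libraries, that of KEAP1, the inhibitor of NRF2 (-0.37, limma adjusted p = 0.0120). The KEAP1 call was lost at equal covered length (-0.40, adjusted p = 0.0952), with quantile scaling (-0.25, adjusted p = 0.0619) and without scaling (-0.21, adjusted p = 0.211). Chosen after the values were seen, a bin of NFE2L2, the gene of NRF2 itself, at chr2:178110001-178120000 was higher in TeloHAEC controls (878, 648, 994 and 716 against 0, 392, 0 and 0). Its log2 difference was 1.93 (limma adjusted p = 0.00368), and 2.11 in treated libraries (adjusted p = 3.511e-04). Whether this bin met the filter for testing only through TeloHAEC libraries was not checked, and its p-values carry that limit. In controls it was 1.47 within day 0 (limma adjusted p = 0.102) and 2.39 within day 1 (adjusted p = 0.0121). The call in controls was also lost at equal covered length. Also chosen after the values were seen, a bin of MAFF, a small MAF partner, at chr22:38600001-38610000 rose with IL1b (360.2 and 492) and TNFa (506 and 466) against 0 and 0 in the TeloHAEC day 1 controls. The log2 differences were 1.64 (limma adjusted p = 0.0409) and 1.78 (adjusted p = 0.0314), while the day 0 controls had 247 and 222.3. Against controls of both days the adjusted p was 0.323 and 0.257, and without replicate 1 of the day 1 control it was 0.144 and 0.115. Leaving out either treated library also ended each call, with adjusted p from 0.100 to 0.181. Which libraries let the MAFF bin meet the filter for testing was likewise not checked.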

How the data were processed

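H3K27ac ChIP-seq peak lists of 24 libraries (20 ChIP, 4 input) were used, grouped by line, treatment and library day from their titles and the labels' protocol, in which _0 and _1 mark the day of library preparation. Per the submitters' processing notes, reads were aligned with Bowtie2 to hg19, and per the file headers, MACS 2.1.1.20160309 called peaks in each library alone, without an input control, keeping 1 tag per position. The deposited lists give each peak's pileup signal, not scaled for depth, its fold enrichment ratio over local background and its −log10 p and q values. The deposited −log10 q column is filled although the headers describe q as not computed.

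From these, peaks with −log10 q of at least 2 on 23 chromosomes (22 autosomes and X) were kept. Covered base pairs were summed in 10000-bp bins and multiplied by the mean covered length of the ChIP libraries over that of the library. Bins with at least 500 unscaled base pairs in at least 2 ChIP libraries were tested (39412) in 1 limma model (3.58.1, R 4.3.3) of 10 group means with 10 residual degrees of freedom, on log2(value + 200), with Benjamini-Hochberg adjustment over all bins. Peaks overlapping by at least 1 bp were merged into regions. Tables, motif searches and figures used python 3.11.15 with numpy 2.4.6, pandas 2.3.3, biopython 1.88 and matplotlib 3.10.9. The text names the leading bin of each window, at most 10 called bins per comparison, regions with the 9-of-10 pattern, the 3 bins most like the AKR1C bin and pathway genes with a called leading bin; other names are marked as chosen after the values were seen. The genes and lists were chosen with earlier results of these data known. Tested on simulated data for IL1b in TeloHAEC (39412 bins, 200 changed), the model recovered 3% of log2 changes of 1 and 46% of log2 changes of 2, with 2 false calls. Alternatives changed the q minimum, scaling, filter, constant, replicate block, samples in the model, controls and libraries; the within-day comparisons were added after seeing the data. Gene windows of the pathway lists and markers were written from general knowledge; their chromosome and gene length fitted RefSeq for all but KRT8. Input libraries entered no model. A result of the pathway lists is not reported here.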

Additional observations from a re-analysis of the deposited data

Results flagged for a closer look

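In 10 of 57 groups of 4 to 6 libraries, 1 library lay far from the others in a tested bin by Dixon's criterion. Its nominal rate of about 1 group in 20 holds for normal values from 1 population. These groups mix days or treatments and hold many zeros, so the count cannot be read against that rate. In groups of 4 controls of a line, AKR1B10 at chr7:134200001-134210000 was at 0 in replicate 1 of the TeloHAEC day 1 control, the shallowest library. At HMOX1, chr22:35790001-35800000 was at 171 base pairs in replicate 2 of the TeloHAEC day 0 control with the other 3 at 0, and at 0 in replicate 1 of the Eahy926 day 1 control with the other 3 at 696 or more. SLC7A11 at chr4:139140001-139150000 had 361 in replicate 1 of the Eahy926 day 0 control.

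In groups of 6 treated libraries of a line, 3 of the results came from replicate 1 of TeloHAEC without VEGF, which had 0 at SLC7A11 in chr4:139150001-139160000, 0 at TXNRD1 in chr12:104620001-104630000 and a high value of 1915 at NQO1 in chr16:69760001-69770000. The SLC7A11 bin chr4:139140001-139150000 had 309.5 in replicate 2 of TeloHAEC with IL1b. The leading TXNRD1 bin had 2736 in replicate 2 of Eahy926 with IL1b. The AKR1C bin chr10:5130001-5140000 had 258 in replicate 2 of Eahy926 with TNFa, the only day 1 library with a peak there.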

How the results depend on the processing

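Of 996 values of named bins under other settings, 818 stayed on their side of the threshold, 163 kept their direction and lost the call, and 8 fell to 0 and lost it. Another 7 changed sign with a call in the main model or under the other setting, 1 of them gaining a call. Sign changes of bins called in neither are counted among the 818. An example is AKR1B10 in controls, with -0.63 to 0.59 when 1 library was left out. These 7 sign changes were GCLM in controls at −log10 q of at least 5 (-1.02, called), HMOX1 at chr22:35770001-35780000 within day 0 (-0.051), and, for library day, ALDH3A1 at equal covered length and without scaling (-0.27 in both), NQO1 without scaling (-0.053) and TXNRD1 at equal covered length (-0.40, called in the opposite direction) and without scaling (-0.30). Labels give groups the same replicate numbers, but same-numbered libraries deviated together with r from -0.061 to 0.156 across bins, so the numbers were not taken as pairs; with a replicate block the counts of called bins were 5 for the line difference in controls, 1 for that in treated libraries (HMOX1 chr22:35760001-35770000, the leading TXNRD1 and ALDH3A1 bins being at adjusted p = 0.0698 and 0.0608 by limma), 0 for TNFa in TeloHAEC, 0 for IL1b and 0 for TNFa in Eahy926 and 6 for library day. The 9 bins of the line difference in controls became 5 at equal covered length and 2 with day 1 controls alone (chosen after seeing the data), and 5 to 8 with 1 library left out, 5 without replicate 1 of the TeloHAEC day 0 control. The 6 in treated libraries became 10 at −log10 q of at least 5. IL1b in TeloHAEC went from 0 to 1 at that q and 1 with the lists as deposited, and 0 to 3 with 1 library left out, 3 without replicate 2 of the day 1 control. TNFa in TeloHAEC went from 2 to 1 with deposited lists, quantile scaling, no scaling, a constant of 50 or the compared groups alone, to 0 at equal covered length or with controls of both days, and 0 to 5 with 1 library left out, 5 without replicate 2 of the day 1 control. VEGF omission went from 0 to 1 at −log10 q of at least 5 and 1 at equal covered length, and 0 to 2 with 1 library left out. IL1b in Eahy926 went from 1 to 0 at that q, at equal covered length, with quantile or no scaling, without the filter and with a constant of 50 or 1000, and TNFa in Eahy926 from 1 to 0 at that q, at equal covered length, with quantile scaling, a constant of 1000, the compared groups alone or controls of both days; each was 0 to 2 with 1 library left out. The cytokine response difference went from 0 to 1 at −log10 q of at least 5, and 0 to 3 with 1 library left out. Library day went from 10 to 3 at equal covered length, which tests only 14 of the 23 bins. The causes of the other changes were not tested. Depths of 3.84 to 7.12 M tags on day 1 limit what a missing peak can show.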
